A study of Mus musculus with 20 samples.

Results

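Livers of mice that carried 2 X chromosomes and the Sry transgene were compared with livers of mice that carried 2 X chromosomes and no Sry. The comparison used 10 arrays of the 20 in the series, 5 labelled XX Sry and 5 labelled XX, and no others. Each array was a separate animal. All 23574 probes entered it, and probes of one gene symbol were averaged, which gave 21556 features, 11647 of them named genes.

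The animals were C57BL/6J mice of the FCG (core genotypes) cross, in which Sry, the testis-determining gene, is missing from the Y chromosome and sits on an autosome as a transgene. XX Sry animals were therefore gonadal males without a Y chromosome, and XX animals were gonadal females. Both groups were kept on 4% fat chow, gonadectomized at 8 weeks of age, fasted for 12 h and killed at 12 weeks. Both lived without gonads from then on, so the transgene itself and the gonads carried until 8 weeks cannot be told apart. Liver RNA was hybridised beside RNA of a common liver pool, and each value is a log ratio of liver to pool, given here in log2 units. A value of 1 is a level of 2 times the pool, and a difference is the mean of XX Sry minus the mean of XX.

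As background, rodent livers differ between males and females mainly through the pattern of growth hormone secretion, which gonadal steroids set and which acts on hepatocytes through STAT transcription factors. Sulfotransferases that conjugate steroids and bile acids, and many cytochrome P450 enzymes, are classical sex-biased liver genes. The liver also holds many resident immune cells, among them Kupffer cells, which are its macrophages, and T and natural killer (NK) cells. Interferon-gamma, released by T and NK cells, induces chemokines, guanylate-binding proteins, MHC class II genes and immunoproteasome subunits in neighbouring cells, through STAT sites and interferon-stimulated response elements (ISRE) in promoters.

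Ratios within arrays were narrow, with an SD over all probes of 0.203 to 0.249 log2 units in XX Sry and 0.214 to 0.332 in XX. The widest arrays were XX 6 (0.332) and XX 2 (0.320). Many values that moved with them by over 1.5 times, or changed sign, are therefore also given without both. The correlation between arrays over all probes ran from 0.06 to 0.57 within XX Sry, from -0.25 to 0.29 within XX and from -0.33 to 0.22 between the groups. Of 45 pairs of arrays, 1 lay below -0.3, and no 2 arrays were identical. Eif2s3y, the Y-linked copy of an eIF2 translation factor gene, ranged from -5.28 to -2.67 in XX Sry livers and from -4.42 to -2.46 in XX livers, and the groups overlapped (adjusted p = 0.484). Kdm5d, a Y-linked histone demethylase, also overlapped (difference -0.08 ± 0.33 SE, adjusted p = 0.945). The X-linked Eif2s3x (0.45 ± 0.12, adjusted p = 0.107) and Kdm6a (0.55 ± 0.19, adjusted p = 0.203) did not pass the threshold. Both Y-linked genes lay below the pool in all 10 livers. The number of arrays limits the precision, and the p-values below come from limma, adjusted by Benjamini-Hochberg over all 21556 features.

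XX Sry livers had fewer transcripts raised than lowered. At an adjusted p of 0.05, limma called 385 features (1.79%). Of these, 60 were higher (0.278%) and 325 were lower (1.51%), so that 84.4% of the calls were lower in XX Sry. Among named genes, 33 were higher and 234 lower. The higher calls had a median difference of 0.48 and the lower ones of -0.59, while the median over all features was 0.021. A difference of 2-fold or more was reached by 4 higher and 50 lower features. Every XX Sry value lay above every XX value in 331 features (1.54%), and below it in 614 (2.85%). Of the 385 called features, 372 had no overlap between the groups.

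**Figure D1:**
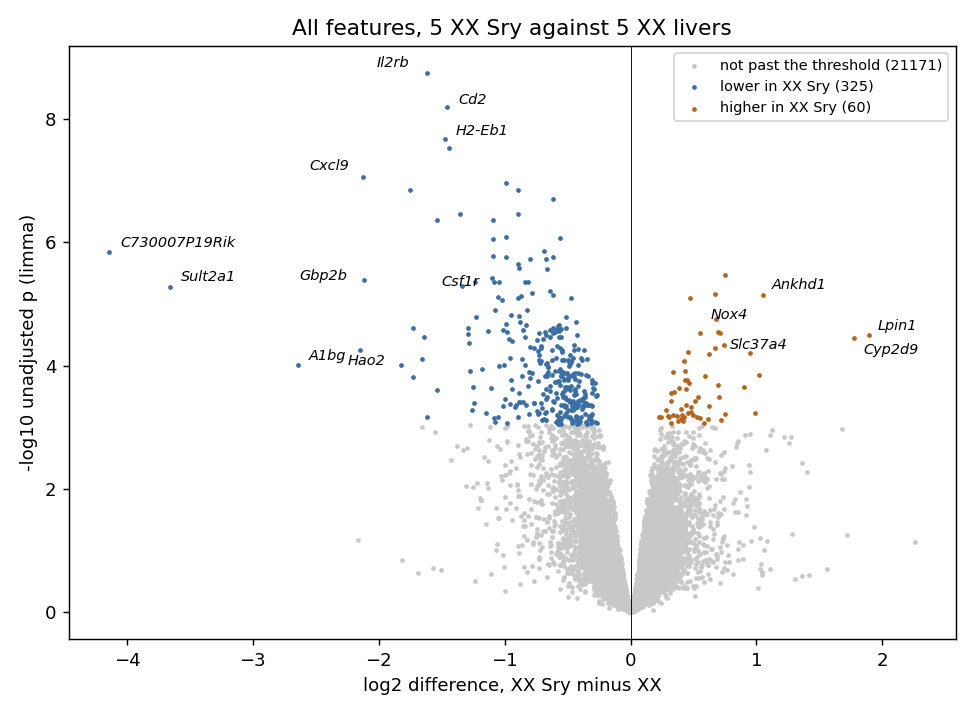
Each point is one of 21556 features. The horizontal axis is the log2 difference of XX Sry minus XX and the vertical axis is -log10 of limma's unadjusted p. The 325 blue points (lower in XX Sry) outnumber the 60 brown ones (higher), and steroid sulfotransferases and A1bg lie farthest to the left, while Il2rb and Cd2 stand highest.

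The count moved with single animals. It fell to 148 without XX Sry 31, 151 without XX Sry 18, 186 without XX Sry 38 and 246 without XX 21, and stood at 533 without XX 6. Higher calls fell to 17 without XX Sry 18 or XX Sry 31, 23 without XX Sry 38, 32 without XX 21, 33 without XX Sry 32 and 35 without XX 35. They stood at 92 without XX 29 and at 124 without XX 6. With both wide arrays left out, 495 features were called, 123 of them higher, and 272 were shared with the 385 (70.6% of the 385 and 54.9% of the 495). No called feature changed its direction in any of these fits, but for the 372 without overlap between the groups this was fixed in advance.

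**Figure D2:**
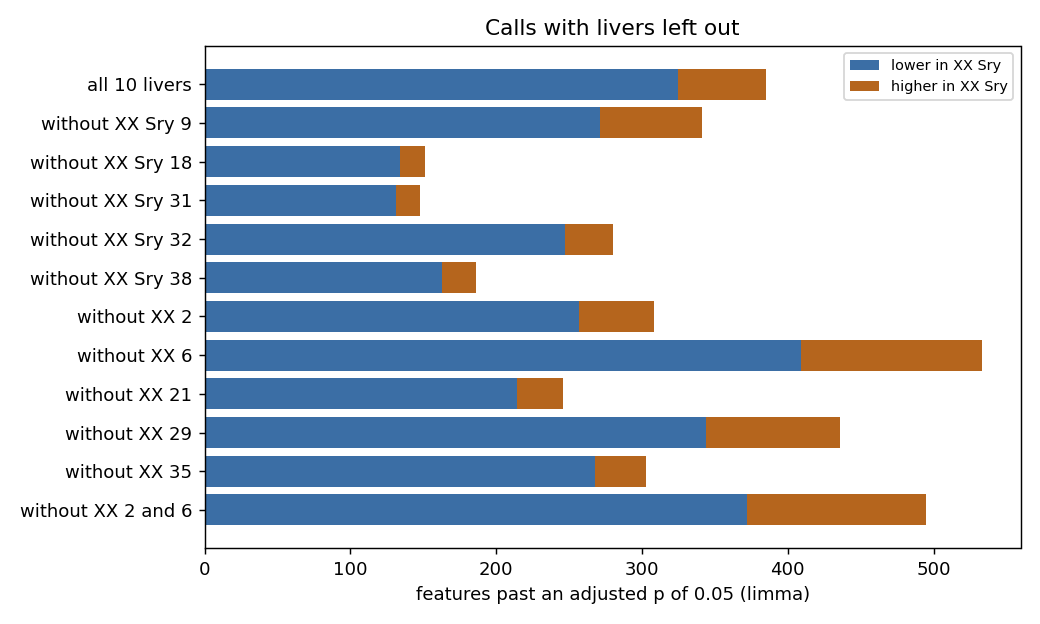
Bars give the number of features past an adjusted p of 0.05 (horizontal axis) with all 10 livers, with each liver left out in turn, and with XX 2 and XX 6 left out together. Blue marks features lower and brown features higher in XX Sry. Lower calls outnumber higher calls in every bar, and the total runs from 148 to 533.

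Among the 8 lists of immune genes, which hold 213 different measured genes, 41 (19.2%) were lower in XX Sry and 0 were higher, against 1.51% and 0.278% of all features. These shares over all features are the measure for each list count below, and 1 call in a list says little about the list. They include unnamed probes, which no list holds. Of the 926 different genes in all 44 lists, 7.45% were lower and 0.648% higher. With 1 animal left out, between 28 (without XX Sry 18 or XX Sry 31) and 50 (without XX 6) of the 213 immune list genes were lower. Without both wide arrays, 49 were lower and 1 higher. In whole liver, fewer cells of a type and less RNA per cell cannot be told apart. Of 17 measured markers of hepatocytes, the main cell of the liver, limma called 0 in either direction (4 at an unadjusted p under 0.05), and their median difference was 0.0078 (0.037 without both wide arrays). Over all 21556 features, 3034 had an unadjusted p under 0.05 in limma, which is the measure for such counts here and below.

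T and NK cell markers gave the 2 smallest p-values of the comparison. Of 37 measured, 13 were lower and 0 higher, with a median difference of -0.16 over the list against 0.021 over all features. Il2rb, the beta chain of the receptors for interleukins 2 and 15, had the smallest p-value in the comparison. Its values were -0.80, -0.91, -0.98, -0.83 and -0.73 in XX Sry animals 9, 18, 31, 32 and 38, and 0.82, 0.95, 0.87, 0.51 and 0.68 in XX animals 2, 6, 21, 29 and 35, an order of animals that is kept below. All XX Sry livers were below the pool and all XX livers above it, a 3.07-fold difference (-1.62 ± 0.09, adjusted p = 3.83e-05). Cd2, an adhesion receptor of T and NK cells, stood at -0.97, -0.82, -0.94, -0.52 and -0.80 in XX Sry and at 0.61, 0.83, 0.56, 0.60 and 0.62 in XX. It was 2.74-fold lower in XX Sry (-1.46 ± 0.09, adjusted p = 6.89e-05), with no overlap between the groups.

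The other T and NK genes that fell cover the T cell receptor, killing and migration. Cd3g (-1.09, adjusted p = 0.00174) and Cd3d (-0.43, adjusted p = 0.00764) encode chains of the CD3 complex. Trav9d-3, a variable segment of the T cell receptor alpha chain, fell by 1.75 on the log2 scale (± 0.15, adjusted p = 0.000386). Its XX Sry livers lay between -1.27 and -0.74 and its XX livers between 0.27 and 1.01. Fasl, the death ligand of killer lymphocytes, was lower by -0.89 (adjusted p = 0.0022), and so was Tbx21, the transcription factor T-bet that drives interferon-gamma production, by -1.09 (adjusted p = 0.00283). The chemokine receptors Cxcr6 (-0.82, adjusted p = 0.00551) and Cxcr3 (-0.73, adjusted p = 0.0115), lymphotoxin beta (Ltb, -0.88, adjusted p = 0.00651) and the CD45-associated protein gene Ptprcap (-0.80, adjusted p = 0.0109) fell as well.

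The remaining calls of that list were less firm. Klrb1c, the NK cell receptor NK1.1, was lower by -0.53 (adjusted p = 0.0195). It missed the threshold without XX Sry 18, XX Sry 31 or XX Sry 38 (adjusted p up to 0.0623) and without both wide arrays (adjusted p = 0.0679). Ccl5, a chemokine of activated T cells, was lower by -1.05 (adjusted p = 0.0426), and missed it without XX Sry 9, 18, 31 or 38 or without XX 21 or 35, with an adjusted p of up to 0.12. Ifng itself was lower by -0.34 ± 0.06 (adjusted p = 0.018). Its values were -0.22, -0.36, -0.16, -0.20 and -0.24 in XX Sry and 0.05, 0.12, 0.02, 0.22 and 0.12 in XX, so the groups were separate but close. It missed the threshold without XX Sry 18 or XX Sry 38 (adjusted p up to 0.0581). Other defining members were not past the threshold: Cd3e differed by -0.06 (adjusted p = 0.794) and Cd8a by -0.14 (adjusted p = 0.382). The 24 members of the list that were not called ranged from -0.82 to 0.26.

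Kupffer cell and macrophage markers had the lowest median of the lists with 10 or more measured genes, -0.61 over 29 genes. Of these, 11 were lower and 0 higher. Csf1r, the receptor for the growth factor that macrophages need, stood at -0.77, -1.10, -0.87, -0.66 and -0.86 in XX Sry and at 0.18, 0.60, 0.22, -0.08 and 0.05 in XX. The groups did not overlap, and the difference was 2.06-fold (-1.04 ± 0.12, adjusted p = 0.00283). Folr2, a folate receptor of resident macrophages, fell by 1.34 on the log2 scale (adjusted p = 0.00311). Fcgr1, a high-affinity receptor for immunoglobulin G, fell by 1.23 (adjusted p = 0.00667), and Cd5l, a secreted macrophage protein, by 1.29 (adjusted p = 0.00823). The signalling adaptors Tyrobp (-0.95, adjusted p = 0.00904) and Fcer1g (-0.86, adjusted p = 0.00813) were lower too.

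The C1q chains, which start the classical complement pathway and are made largely by macrophages, were lower together: C1qa by -1.06 (adjusted p = 0.00376), C1qc by -0.99 (adjusted p = 0.00792) and C1qb by -0.56 (adjusted p = 0.018). C1qb missed the threshold without XX Sry 18 or XX Sry 31, with an adjusted p of up to 0.0643. Clec4f (-0.88, adjusted p = 0.0259) and Timd4 (-0.60, adjusted p = 0.0174), also on the Kupffer cell and macrophage list, were past the threshold. The 2 probes of Timd4 disagreed, at -1.06 (adjusted p = 0.00494 over probes) and -0.13 (0.651), so its value is an average of a call and of a probe that did not pass. Timd4 missed the threshold without XX Sry 18 or XX Sry 31 (adjusted p up to 0.0592), and Clec4f without XX Sry 18, 31, 32 or 38 or without XX 2 or 21 (up to 0.0858). Marco, a scavenger receptor, had a larger difference that did not pass (-1.55 ± 0.36, adjusted p = 0.0577). Its XX Sry values ran from -2.86 to -1.49 and its XX values from -1.43 to 0.28, so the groups only just separated. Adgre1, which encodes F4/80, came close (-0.98, adjusted p = 0.0511), while Cd68 differed by -0.16 (adjusted p = 0.421). Without both wide arrays 16 of the 29 were called lower.

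Of 15 measured B cell markers, 4 were lower and 0 higher, with a median of -0.14 (-0.075 without both wide arrays). The share called was 26.7%, against 35.1% of the T and NK list and 37.9% of the Kupffer cell and macrophage list. Cd22, an inhibitory receptor of B cells, was at -0.94, -0.62, -0.74, -0.19 and -0.58 in XX Sry and at 0.59, 0.78, 0.20, 0.37 and 0.38 in XX (-1.08 ± 0.14, adjusted p = 0.00551). Cxcr5, the chemokine receptor of follicular B cells (-0.64, adjusted p = 0.00361), and Cd79b, a chain of the B cell receptor (-0.42, adjusted p = 0.0111), were also lower. Pou2af1, a B cell transcriptional coactivator (-0.46, adjusted p = 0.0317), missed the threshold without any one of XX Sry 9, 18, 31, 32 or 38 or of XX 21 or 29 (adjusted p up to 0.102). Of 18 neutrophil and mast cell markers, 1 was lower, the neutrophil granule gene Ngp (-1.25, adjusted p = 0.0228). It missed the threshold without XX Sry 18, XX Sry 31 or XX 21 (adjusted p up to 0.0768).

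Ly6c2, a surface protein of monocytes and some T cells, was lower by -1.62 ± 0.34 (adjusted p = 0.0426). Its values were -0.58, -1.55, -1.54, -0.98 and -1.15 in XX Sry against 0.92, 1.58, -0.36, 0.13 and 0.01 in XX. The XX livers spread widely, and the call was lost in 7 of the 10 fits that omitted an animal, those without XX Sry 18, 31, 32 or 38 or XX 2, 29 or 35, with an adjusted p of up to 0.129. Tmsb4x, an X-linked actin-binding gene that is abundant in blood cells, was 2.14-fold lower (-1.10 ± 0.13, adjusted p = 0.00283). It stood at -1.35, -1.41, -1.68, -1.36 and -1.40 in XX Sry and at -0.23, 0.09, -0.57, -0.57 and -0.45 in XX.

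Of 30 genes of the interferon-gamma response, 7 were lower and 0 higher, and the list median was -0.45. The 23 not called ranged from -1.66 to 0.17. Cxcl9, a chemokine that attracts T cells through CXCR3, fell 4.35-fold. It stood at -1.57, -1.75, -2.03, -1.54 and -1.84 in XX Sry and at 0.48, 0.91, 0.16, -0.08 and 0.42 in XX (-2.12 ± 0.17, adjusted p = 0.000379). Gbp2b, a guanylate-binding protein of cell-autonomous defence, was at -1.43, -1.67, -2.16, -1.62 and -1.69 in XX Sry and at 0.19, 1.41, 0.22, 0.19 and -0.01 in XX (-2.12 ± 0.25, adjusted p = 0.00283). Liver XX 6 was far above the other XX livers for this gene, and the difference was -1.86 without it and -1.85 without both wide arrays. Ubd, a ubiquitin-like protein induced by interferon-gamma, fell 3.16-fold (-1.66 ± 0.27, adjusted p = 0.0136). Socs1, a feedback inhibitor of cytokine signalling, was lower by -0.57 (adjusted p = 0.0195), but missed the threshold without XX Sry 18, XX Sry 31 or XX 21 (adjusted p up to 0.0684) and without both wide arrays (adjusted p = 0.0689).

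The calls among MHC class II and immunoproteasome genes were also lower. Among 26 genes of MHC and antigen presentation, 5 were lower and 0 higher, with a median of -0.31. H2-Eb1, a class II beta chain, stood at -1.12, -1.09, -1.31, -1.23 and -1.16 in XX Sry and at 0.05, 0.35, 0.36, 0.09 and 0.59 in XX, a 2.77-fold difference (-1.47 ± 0.10, adjusted p = 0.000148). H2-Aa, a class II alpha chain, was at -0.80, -0.91, -0.82, -0.71 and -0.81 in XX Sry and at 0.18, 0.08, 0.24, -0.02 and 0.40 in XX (-0.99 ± 0.08, adjusted p = 0.000386). For both genes the XX Sry values were tight and lay wholly below the XX values. The inducible proteasome subunits Psmb8 (-0.86, adjusted p = 0.0136) and Psmb10 (-0.80, adjusted p = 0.0191) and the proteasome activator Psme1 (-0.44, adjusted p = 0.0191) were lower. Psmb10 and Psme1 missed the threshold without XX Sry 18, XX Sry 31 or XX Sry 38, with adjusted p-values of up to 0.0668 and 0.0684. Class II genes are made mainly by antigen-presenting cells, and the T cell and Kupffer cell lists moved with these genes and with the interferon-gamma list. Their part in either result was not tested.

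Type I interferon genes varied among animals. Of 28 measured, limma called 0 in either direction (4 at an unadjusted p under 0.05), and 25 had a negative difference, with a median of -0.33. The list mean was 1.15 in XX 6, against -0.24 to 0.050 in the other XX livers and -0.35 to 0.032 in XX Sry livers. Without both wide arrays the median was -0.14. Irf7, a transcription factor of that response, differed by -0.95 (adjusted p = 0.107). Tgtp1, a GTPase induced by interferons that is not among these 28 genes, differed by -1.66 (adjusted p = 0.0519). Among 48 chemokines, cytokines and their receptors, 9 were lower and 0 higher. Beside those named above, they were the interleukin 18 inhibitor Il18bp (-0.66, adjusted p = 0.0179), the receptor chain Il10rb (-0.49, adjusted p = 0.0152) and Cxcl16, the ligand of CXCR6 (-0.37, adjusted p = 0.0249). Il18bp missed the threshold without XX Sry 18 or XX Sry 31 (adjusted p up to 0.0621) and Il10rb without XX Sry 31 (0.0556). Cxcl16 missed it without XX Sry 18, 31 or 38, XX 21 or XX 35 (up to 0.0861), and without both wide arrays (0.0564).

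**Figure D3:**
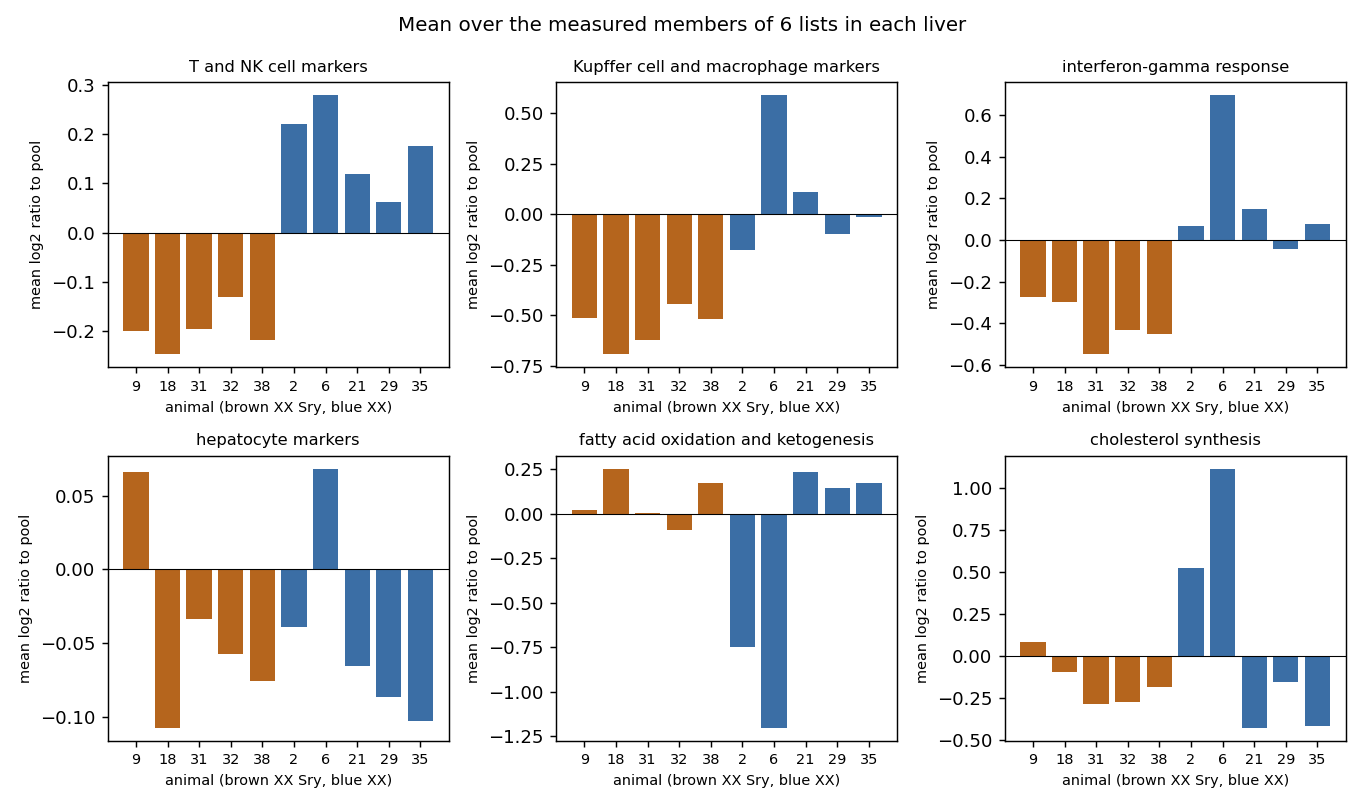
Bars give the mean log2 ratio to the pool over the measured members of 6 lists (vertical axes, each with its own scale) in each of the 10 livers (horizontal axes). T and NK cell, Kupffer cell and interferon-gamma lists lie lower in all 5 XX Sry livers (brown) than in all 5 XX livers (blue), hepatocyte markers overlap, and XX 2 and XX 6 stand apart in the fatty acid oxidation and cholesterol lists.

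The mean over the T and NK list lay between -0.25 and -0.13 in XX Sry livers and between 0.062 and 0.28 in XX livers. For the Kupffer list these ranges were -0.69 to -0.45 and -0.18 to 0.59. Neither list overlapped between groups. The means of other lists were separate as well, among them the stellate cell, matrix, erythroid and B cell lists. Markers of other liver cells held fewer calls. Sinusoidal endothelial markers had 0 of 21 called by limma (3 at an unadjusted p under 0.05), with a median of -0.055 (-0.010 without both wide arrays). Stellate cell and fibroblast markers had 1 of 27 higher (Omd) and 1 lower (the matrix protein gene Sparc, -0.53, adjusted p = 0.0426), with a median of -0.10. Sparc missed the threshold without any one XX Sry animal and without XX 2 or XX 21 (adjusted p up to 0.129). Cholangiocyte markers had 1 of 14 lower, the RNA-binding protein gene Bicc1 (-0.43, adjusted p = 0.0449), with a median of -0.20. The Bicc1 call was lost in 8 of 10 such fits (adjusted p up to 0.125), all but those without XX 6 or XX 21.

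Promoters of the lowered genes are shown for the motifs through which interferon and growth hormone signals act. RefSeq promoters (GRCm38.p6) of 250 bases before to 50 after the start were matched by gene for 8695 array genes. A STAT site, TTCNNNGAA on either strand, was found in 18 of 178 promoters of genes lower in XX Sry (10.1%), 2 of 25 of genes higher (8%) and 621 of all 8695 (7.14%). The core of the ISRE, GAAA followed by any pair of bases and GAAA, on either strand, was found in 9 of 178 (5.06%), 0 of 25 and 296 of 8695 (3.40%). The 250 bases before the start are printed for 4 of the lowered genes that hold such a match, a defence gene and an immunoproteasome gene of the interferon-gamma list and a pair of female-biased liver genes, with the matches in capitals. They lie at chr3:142594597-142594846 (plus strand, Gbp2b), chr17:34197945-34198194 (plus strand, Psmb8), chr10:33857472-33857721 (plus strand, Sult3a1) and chr15:60921271-60921520 (minus strand, A1bg).
Gbp2b: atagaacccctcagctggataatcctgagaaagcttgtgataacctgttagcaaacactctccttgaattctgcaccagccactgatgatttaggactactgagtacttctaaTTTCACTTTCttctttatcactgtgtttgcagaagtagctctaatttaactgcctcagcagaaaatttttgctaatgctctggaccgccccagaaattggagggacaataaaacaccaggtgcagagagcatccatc
Psmb8: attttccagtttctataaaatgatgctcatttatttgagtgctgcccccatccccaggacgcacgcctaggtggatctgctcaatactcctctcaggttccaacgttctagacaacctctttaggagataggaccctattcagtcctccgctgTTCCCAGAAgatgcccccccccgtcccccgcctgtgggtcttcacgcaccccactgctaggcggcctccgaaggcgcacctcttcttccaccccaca
Sult3a1: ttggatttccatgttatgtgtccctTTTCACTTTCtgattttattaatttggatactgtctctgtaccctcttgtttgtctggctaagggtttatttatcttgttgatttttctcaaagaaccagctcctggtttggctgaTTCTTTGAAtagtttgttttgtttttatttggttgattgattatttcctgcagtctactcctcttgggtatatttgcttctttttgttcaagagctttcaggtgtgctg
A1bg: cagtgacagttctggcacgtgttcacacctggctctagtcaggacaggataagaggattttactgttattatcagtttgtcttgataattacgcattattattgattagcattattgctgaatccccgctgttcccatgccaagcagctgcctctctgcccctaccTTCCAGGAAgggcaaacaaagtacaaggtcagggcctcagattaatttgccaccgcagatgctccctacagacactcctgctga

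In these windows the ISRE match of Gbp2b began 137 bases before the start, and that of Sult3a1 225 bases before it. The STAT matches began 84 bases before the start in A1bg, 97 in Psmb8 and 109 in Sult3a1. Such a match is a description of letters, and binding was not measured. Of the other motifs searched on both strands, the E-box CACGTG was found in 9.55% of lowered, 4% of raised and 9.01% of all promoters. The relaxed steroid receptor element was found in 0%, 4% and 0.357%, and the D-box TTATGTAA in 0%, 4% and 0.736%. For each of these motifs, the 4% is 1 promoter of 25. The full glucocorticoid receptor element was found in none of the 8695. The PPAR-type direct repeat was found in 6 of the 8695, none of them of a called gene.

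The largest differences of the comparison were in sulfotransferases, which attach sulfate to steroids, bile acids and drugs. Of 13 measured, 5 were lower and 0 higher. Sult2a1, a bile acid and dehydroepiandrosterone sulfotransferase, stood at -1.53, -3.0, -3.10, -3.77 and -3.26 in XX Sry and at 0.02, 1.5, 0.60, 1.54 and -0.03 in XX. The XX Sry livers lay wholly below the XX livers, by 12.6-fold (-3.65 ± 0.44, adjusted p = 0.00314). XX Sry 9 was the highest of its group for this gene. C730007P19Rik, a platform symbol that the RefSeq table gives as a synonym of Sult2a2, was 17.6-fold lower (-4.14 ± 0.44, adjusted p = 0.00174). Its values were -1.93, -3.48, -3.61, -4.29 and -3.92 in XX Sry against 0.13, 1.32, 0.68, 1.39 and -0.07 in XX, and the animals fell in the same order within each group as for Sult2a1. Members of the Sult2a family are near-identical in sequence, so the probes may not separate them. The 4 probes of C730007P19Rik gave differences from -5.05 to -3.09, and the 2 of Sult2a1 gave -4.14 and -3.17.

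Sult3a1, a sulfotransferase of amines, was at -1.19, -1.12, -1.14, -1.08 and -1.12 in XX Sry and at 0.52, 0.51, 0.18, 1.66 and 0.11 in XX. The XX Sry livers were nearly alike, the XX livers spread over more than 1 log2 unit, and the difference was 3.30-fold (-1.72 ± 0.24, adjusted p = 0.00813). Its 2 probes gave -1.17 (adjusted p = 0.0789 over probes) and -2.27 (0.000829). Sult5a1 (-0.96 ± 0.14, adjusted p = 0.00884) and Sult1c2 (-0.75 ± 0.11, adjusted p = 0.00904) were lower too. The 8 sulfotransferase genes that were not called ranged from -0.42 to 0.55.

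Of 31 female-biased liver genes, 5 were lower and 0 higher. They were Sult2a1 and Sult3a1, already described, with A1bg, Hao2 and Cyp2b13. The list median was -0.097, and -0.0052 without both wide arrays, where 4 were lower. A1bg, a secreted plasma protein, stood at -1.67, -0.99, -1.94, -1.40 and -1.49 in XX Sry and at 2.15, 0.30, -0.24, 2.14 and 1.34 in XX. The XX livers spread widely and still lay above all XX Sry livers (6.23-fold, -2.64 ± 0.44, adjusted p = 0.0149). The call missed the threshold without XX Sry 31 (adjusted p = 0.0524). Hao2, a peroxisomal oxidase of hydroxy acids, was at -0.42, -0.31, -1.54, -0.94 and -0.70 in XX Sry and at 1.68, 0.95, 0.83, 1.55 and 0.19 in XX (3.53-fold lower, -1.82 ± 0.30, adjusted p = 0.0148). Cyp2b13, a female-predominant cytochrome P450, was lower by -0.49 (adjusted p = 0.0313), and missed the threshold without XX Sry 18, 31, 32 or 38, XX 21 or XX 35 (adjusted p up to 0.0944) and without both wide arrays (0.0679). Its 2 probes disagreed, at -0.89 (adjusted p = 0.0301 over probes) and -0.09 (0.644). The 26 members not called ranged from -0.88 to 1.22. The highest of them was the flavin monooxygenase Fmo2 (1.22 ± 0.29, adjusted p = 0.0637), and Cux2, a transcription factor of female liver, differed by 0.72 (adjusted p = 0.0934), both toward higher levels in XX Sry.

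Male-biased liver genes showed no common direction. Of 25 measured, 1 was higher and 2 lower, with a median of -0.028 (-0.0014 without both wide arrays, where 1 was higher and 1 lower). Cyp2d9, a steroid 16-alpha-hydroxylase and classical male-specific P450, was 3.42-fold higher in XX Sry (1.78 ± 0.26, adjusted p = 0.00867). Its values were 0.31, 0.23, 0.39, 0.69 and 0.99 in XX Sry and -1.39, -1.65, -0.80, -1.93 and -0.49 in XX, with no overlap. Hsd3b2, a hydroxysteroid dehydrogenase on the same list, went the other way. It was at -0.67, -1.50, -0.96, -0.39 and -0.67 in XX Sry and at 1.68, 1.5, 0.34, 0.59 and 0.32 in XX (-1.72 ± 0.30, adjusted p = 0.0185). The call was lost without XX Sry 18 or XX Sry 31 (adjusted p up to 0.0637), and the difference was -1.25 without both wide arrays. Genes of this enzyme family are alike in sequence, and the probe may not separate them. Nudt7, a peroxisomal coenzyme A hydrolase, was lower by -0.58 (adjusted p = 0.0413) with overlapping groups. It passed in 2 of the 10 fits omitting an animal, those without XX Sry 38 or XX 29. Without any other animal its adjusted p rose to as much as 0.121, and without both wide arrays it was 0.136.

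**Figure D4:**
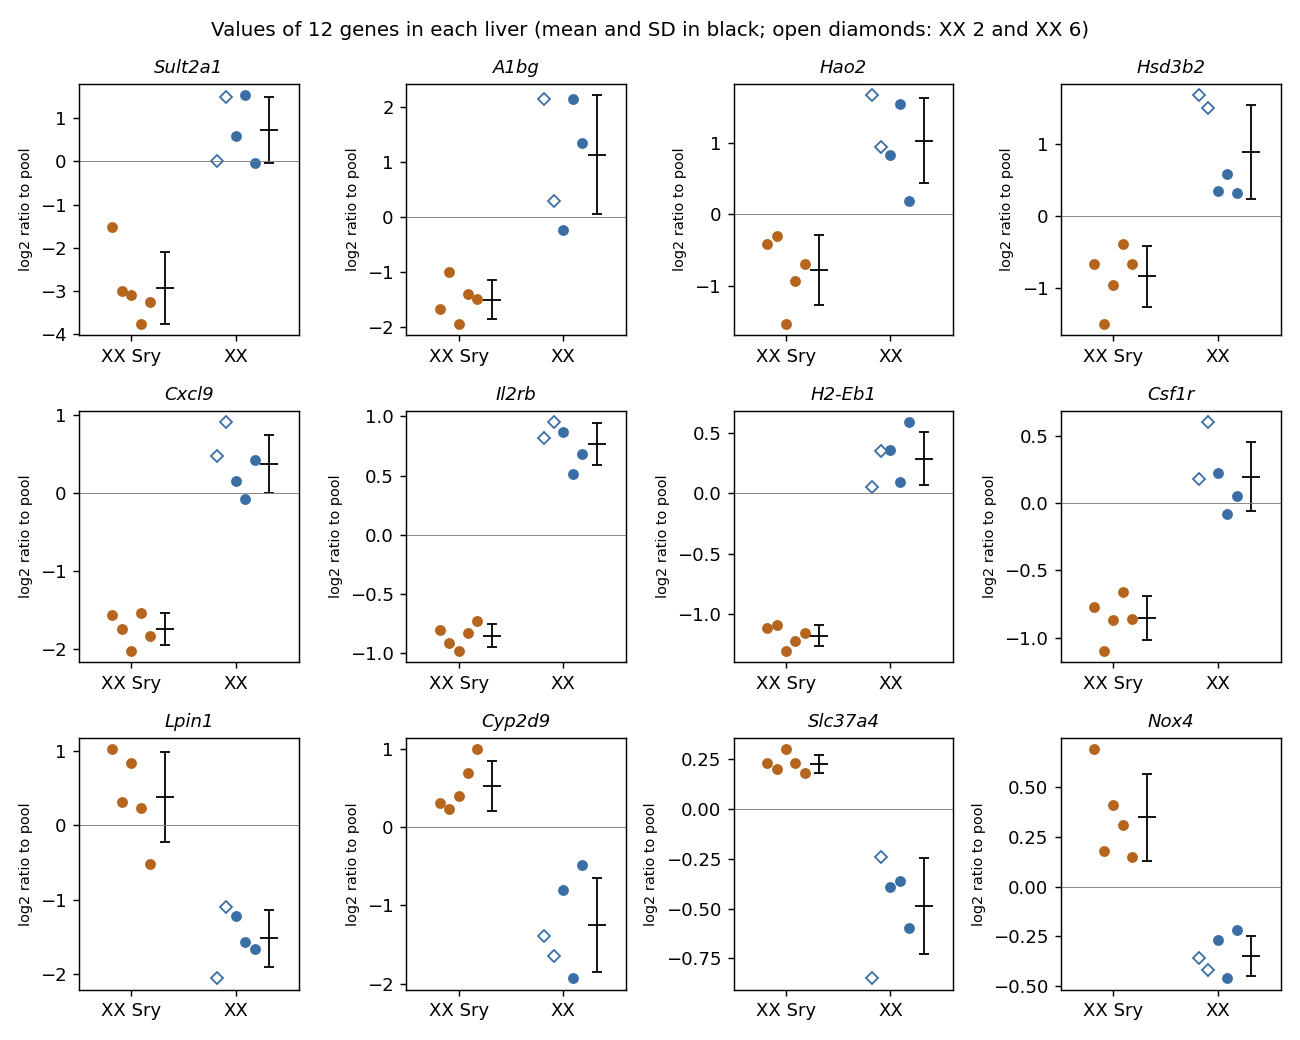
Points are the log2 ratios to the pool (vertical axes, each with its own scale) of 12 genes in 5 XX Sry (brown) and 5 XX (blue) livers, and black marks give the mean and SD. Open diamonds are XX 2 and XX 6. The groups do not overlap in any panel. The upper 8 genes are lower in XX Sry and the last 4 (Lpin1, Cyp2d9, Slc37a4 and Nox4) higher.

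Of 50 cytochrome P450 enzymes, 1 was higher (Cyp2d9) and 1 lower (Cyp2b13), with a median of -0.063. Together they are 4% of the list, against 1.79% of all features called. Without both wide arrays the median was 0.020, on the other side of 0. Among 40 other drug-metabolising enzymes, 3 were lower and 0 higher (4 and 1 without both wide arrays). Inmt, a methyltransferase of indole amines and thioethers, was at -0.10, -1.28, -0.90, -0.70 and -0.67 in XX Sry and at 1.44, 1.05, 0.76, 0.24 and 1.03 in XX (3.11-fold lower, -1.64 ± 0.24, adjusted p = 0.00845). The alcohol dehydrogenase Adh1 (-0.88, adjusted p = 0.0317) and the aldehyde oxidase Aox3 (-0.67, adjusted p = 0.018) also fell. Adh1 missed the threshold without any one XX Sry animal (adjusted p up to 0.0957), and Aox3 without XX Sry 18, 31 or 38 (up to 0.0621). Among growth hormone and sex steroid signalling genes, 1 of 28 was lower (Socs1) and 0 were higher, with a median of 0.025 (0.0081 without both wide arrays, where limma called 0). Stat5a, a transcription factor of that pathway, differed by -0.71 (adjusted p = 0.141).

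Dct, an enzyme of melanin synthesis, was among the largest differences outside these lists. It stood at -0.79, -1.20, -1.60, -0.53 and -1.23 in XX Sry and at 2.01, 0.93, -0.07, 1.34 and 1.18 in XX (4.43-fold lower, -2.15 ± 0.34, adjusted p = 0.0111). Saa2, of the serum amyloid A family of acute phase proteins, was lower in XX Sry. It was at -1.98, -1.94, -1.56, -2.06 and -2.32 in XX Sry and at -0.36, 0.71, -0.78, -1.03 and -0.72 in XX (-1.54 ± 0.29, adjusted p = 0.0242). Saa1 (-1.33, adjusted p = 0.0826) and Saa3 (-1.30, adjusted p = 0.0806) did not pass, and for both XX 6 stood far above the other XX livers. Members of this family are close in sequence and their probes may share signal. Saa2 missed the threshold without XX Sry 18, XX Sry 32, XX Sry 38 or XX 2 (adjusted p up to 0.0727), and was the only 1 of 30 acute phase genes called (3 were lower without both wide arrays).

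Complement and coagulation genes had 5 of 34 lower and 0 higher. Apart from the C1q chains they were Serping1, the C1 inhibitor (-0.38, adjusted p = 0.0364), and Klkb1, plasma prekallikrein (-0.33, adjusted p = 0.0442). Serping1 missed the threshold without XX Sry 18, 31, 32 or 38 or XX 2 or 21 (adjusted p up to 0.111) and without both wide arrays (0.081). Klkb1 missed it in 9 of 10 fits omitting an animal, all but that without XX 2 (up to 0.139). Genes of pericentral hepatocytes, those around the central vein, had 2 of 20 lower, with a median of -0.40 that was -0.23 without both wide arrays. They were the secreted hepatokine Lect2 (-0.89 ± 0.11, adjusted p = 0.00376) and the ammonium transporter Rhbg (-0.73 ± 0.12, adjusted p = 0.0136). Lect2 stood at -0.21, -0.32, -0.63, -0.53 and -0.41 in XX Sry and at 0.57, 0.80, 0.26, 0.35 and 0.40 in XX, without overlap. Of 21 periportal genes, limma called 0 (7 at an unadjusted p under 0.05), with a median of 0.057 (0.092 without both wide arrays).

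Oxidant enzymes and antioxidants had 1 of 29 higher and 4 lower. Nox4, an oxidase that makes hydrogen peroxide, rose 1.62-fold, with values of 0.69, 0.18, 0.41, 0.31 and 0.15 in XX Sry and of -0.36, -0.42, -0.27, -0.46 and -0.22 in XX (0.70 ± 0.10, adjusted p = 0.00813). Ncf4, a subunit of the phagocyte oxidase, fell by 1.13 on the log2 scale (adjusted p = 0.00813). Gclc, which limits glutathione synthesis (-0.71, adjusted p = 0.0322), and Gpx7, a peroxidase of the endoplasmic reticulum (-0.67, adjusted p = 0.0304), were lower, beside Hao2. Gclc missed the threshold without XX Sry 9, 18, 31 or 32 or XX 21 (adjusted p up to 0.0987), and Gpx7 without XX Sry 9, 18, 31 or 38 or XX 21, 29 or 35 (up to 0.0921). Matrix genes had 1 of 31 higher (Omd) and 2 lower, the collagen Col14a1 (-0.62, adjusted p = 0.018) and the protease Mmp2 (-0.56, adjusted p = 0.0222). Col14a1 missed the threshold without XX Sry 18, 31 or 38 (up to 0.0621), and Mmp2 without these or XX 21 (up to 0.0714).

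Genes of fasting metabolism supplied the largest rise. Lpin1, a phosphatidate phosphatase that also coactivates fasting genes, was at 1.02, 0.32, 0.84, 0.23 and -0.52 in XX Sry and at -2.05, -1.09, -1.22, -1.56 and -1.66 in XX. The XX Sry livers spread widely but lay above all XX livers (3.72-fold higher, 1.89 ± 0.28, adjusted p = 0.00828). Slc37a4, the transporter that carries glucose 6-phosphate to its phosphatase, was at 0.23, 0.20, 0.30, 0.23 and 0.18 in XX Sry and at -0.85, -0.24, -0.39, -0.36 and -0.60 in XX (1.64-fold higher, 0.71 ± 0.10, adjusted p = 0.00813). These were the only 2 of 21 gluconeogenesis and fasting genes called, and the list median was 0.22. Irs2, an adaptor of insulin signalling, differed by 1.13 ± 0.26 (adjusted p = 0.0549). Aass, the first enzyme of lysine breakdown, rose by 0.95 ± 0.15 (adjusted p = 0.0119). It was the only call among 31 genes of the urea cycle and amino acid breakdown, whose median was 0.15. Without both wide arrays 3 of them were higher. The argininosuccinate lyase Asl differed by 0.67 (adjusted p = 0.0522).

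Fatty acid oxidation showed how far XX 2 and XX 6 weigh on the XX group. Its list median was 0.32 over 26 genes, the highest of the lists with 10 or more measured genes, and limma called 0 of them (3 at an unadjusted p under 0.05). The list mean was -0.75 in XX 2 and -1.20 in XX 6, against 0.14 to 0.23 in the other 3 XX livers and -0.094 to 0.25 in XX Sry livers. Without both, the median was -0.097, on the other side of 0, and 1 gene was called lower. Cholesterol synthesis had the opposite signs. Its median was -0.19 over 18 genes, of which limma called 0 (3 at an unadjusted p under 0.05). List means were 0.52 in XX 2 and 1.11 in XX 6. Without both, the median was 0.17 and 1 gene was called lower. Fdft1, squalene synthase, differed by -1.14 (adjusted p = 0.104). Abcg1, a sterol exporter found in macrophages as well as hepatocytes, was the only 1 of 25 lipoprotein and lipase genes called (-0.59, adjusted p = 0.0294). Without both wide arrays 2 of the 25 were lower. Abcg1 missed the threshold without XX Sry 9, 18, 31 or 38 or XX 2, 21 or 35 (adjusted p up to 0.0947). Mttp, which loads lipid onto lipoproteins, differed by 0.54 (adjusted p = 0.132).

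**Figure D5:**
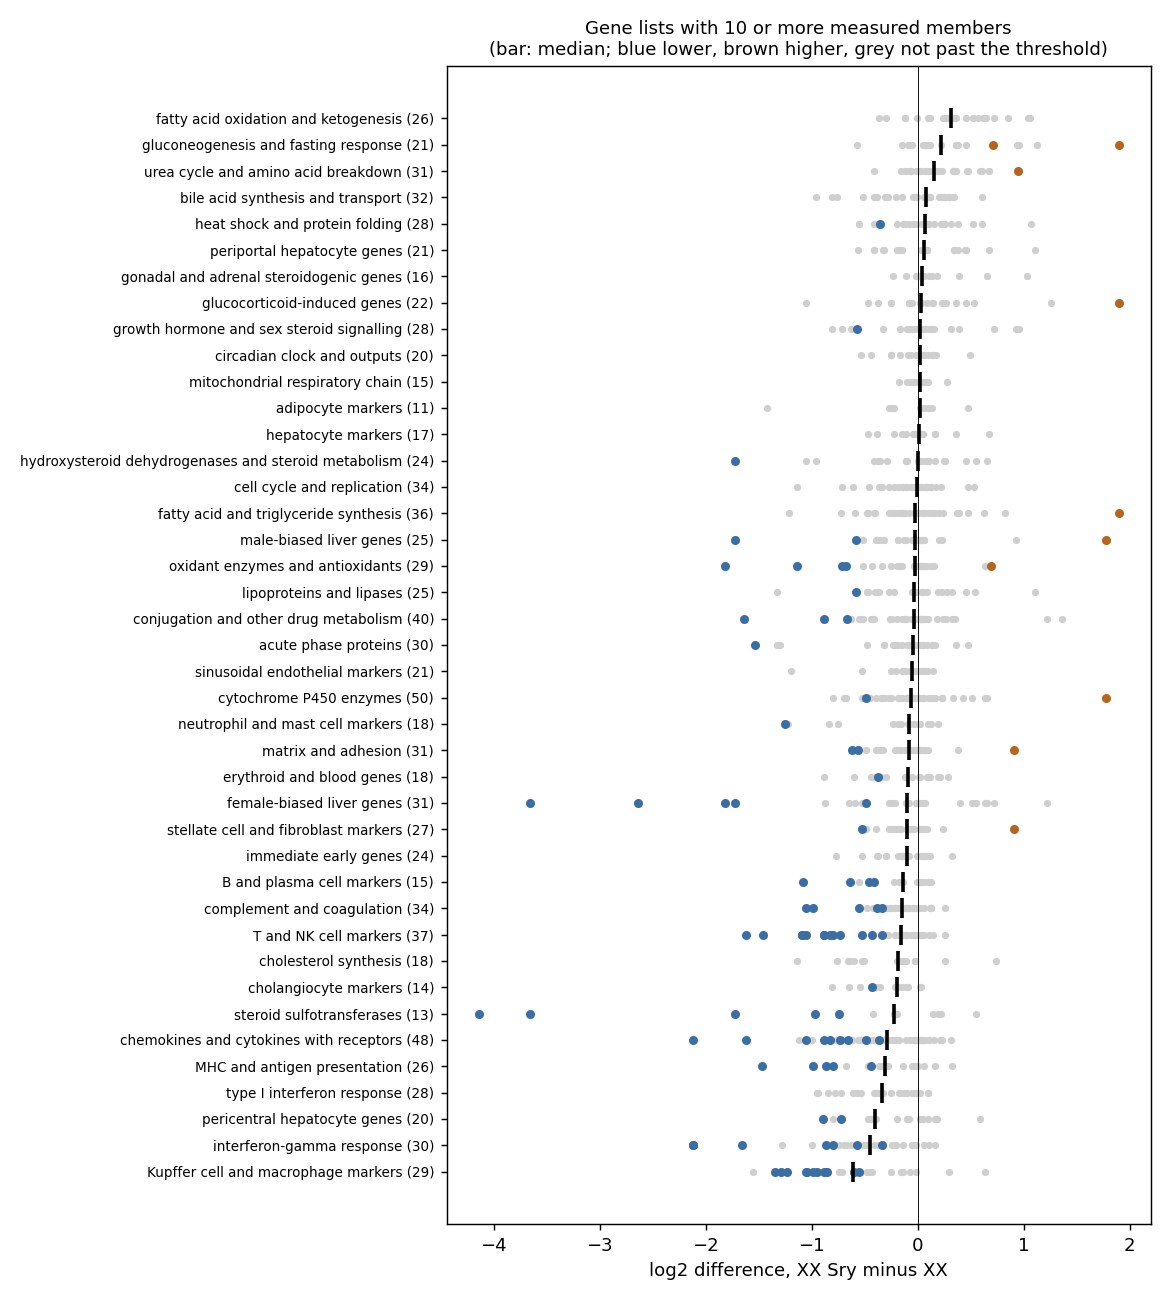
Each row is a list with 10 or more measured genes (number in brackets) and each point a gene at its log2 difference, XX Sry minus XX (horizontal axis). Blue points passed the threshold as lower, brown as higher, grey points did not pass, and black bars are list medians. The 8 immune lists hold 41 of the 69 list genes called lower, and the Kupffer list has the lowest median (-0.61).

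The other named genes among the 15 largest rises belong to no common list. Ankhd1, an ankyrin-repeat protein, rose by 1.05 ± 0.13 (adjusted p = 0.00375), but its 2 probes disagreed, at 0.018 and 2.09. Its neighbour on chromosome 18, Apbb3, a protein that binds amyloid precursor protein, rose by 0.75 (adjusted p = 0.0407). Apbb3 missed the threshold without any one XX Sry animal and without XX 6 or XX 35 (adjusted p up to 0.122), and with arrays centred on their medians (0.0508). Osbpl1a (0.50) and Hspa9 (0.37), also on chromosome 18, rose with an adjusted p of 0.0422 each, both lost in most fits omitting an animal (adjusted p up to 0.111 and 0.119, respectively) and under median centring. By chromosome, higher calls made up 4 of 263 measured genes on chromosome 18 (1.52%) and 5 of 355 on chromosome 12 (1.41%), against 32 of 10948 placed genes (0.292%). On the X chromosome 0 of 399 were higher and 4 (1%) lower, against 226 of the 10948 placed genes lower (2.06%).

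Chrdl2, an inhibitor of bone morphogenetic proteins, rose by 0.74 ± 0.11 (adjusted p = 0.0102). Map3k6, a stress-activated kinase, rose by 0.67 ± 0.08 (adjusted p = 0.00375), and Mgat2, an enzyme of N-glycan branching, by 0.55 ± 0.08 (adjusted p = 0.00815). TMEM41A, a membrane protein that the platform annotation gives under its human-style symbol, rose by 0.67 ± 0.10 (adjusted p = 0.0109). Tchh, a structural protein of hair follicles (1.02, adjusted p = 0.018), and Omd, a matrix proteoglycan (0.90, adjusted p = 0.0229), were also higher. Tchh missed the threshold without XX Sry 18, 31 or 38 (adjusted p up to 0.0582) and Omd without XX Sry 18, 32 or 38 (up to 0.0729). As3mt, which methylates arsenic, rose by 0.59 (adjusted p = 0.0181) and missed the threshold without XX Sry 18 (adjusted p = 0.0609). Dact1, a regulator of Wnt signalling, rose by 0.59 (adjusted p = 0.0489), and passed in 1 of 10 fits omitting an animal, that without XX 29 (adjusted p up to 0.116 in the others, and 0.119 without both wide arrays).

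Several lists held no call by limma in either direction. Of 32 genes of bile acid synthesis and transport, 0 were called and 10 had an unadjusted p under 0.05, with a median of 0.079. The same pair of counts was 0 and 1 of 20 for the circadian clock (median 0.024), 0 and 5 of 24 for immediate early genes (-0.10), 0 and 8 of 34 for cell cycle and replication (-0.011) and 0 and 0 of 15 for the mitochondrial respiratory chain (0.020). It was 0 and 1 of 16 for gonadal and adrenal steroidogenic genes (0.036). Markers of pancreatic acini (0 and 1 of 9, median -0.038) and adipocytes (0 and 3 of 11, median 0.020), tissues that lie beside the liver, were not called either. Without both wide arrays these medians were -0.021 for bile acid genes, where 2 were then lower, 0.0025 for the clock, -0.16 for immediate early genes and 0.014 for the cell cycle. They were 0.034 for the respiratory chain, 0.076 for steroidogenic genes, 0.051 for pancreatic and 0.038 for adipocyte markers. An unadjusted p under 0.05 was reached by 3034 of all 21556 features. Erythroid and blood genes had 1 of 18 lower (2 without both wide arrays), the platelet integrin Itga2b (-0.37, adjusted p = 0.0337). It passed in 1 of 10 fits omitting an animal, that without XX 6 (adjusted p up to 0.103). Heat shock and protein folding genes had 1 of 28 lower, the small chaperone Cryab (-0.35, adjusted p = 0.0322), which was lost in 8 of those 10 fits, all but those without XX 6 or XX 35 (adjusted p up to 0.101), and without both wide arrays (0.0843).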

How the data were processed

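The deposited file holds log10 ratios of liver (Cy5) to a common liver pool (Cy3) for 23574 probes. Base and direction were not stated and were read from the values, which end at a size of 2 (14 values of these arrays) and put Y-linked genes of XX livers below 0. Another base would scale all differences alike and leave p-values as they are. Per the labels' protocols, RNeasy columns were used for RNA, which was labelled by an aminoallyl MessageAmp II procedure. The labels describe the pool as 17 mice and the design text as all samples, but the pool cancels between groups. How arrays were scanned, background-corrected and dye-normalized is not given in the sources used here, so signal over background is unknown.

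Values were multiplied by 3.32 to give log2. Of the probes, 12662 were named through an Entrez ID in RefSeq's gene table (GRCm38.p6), 4 through an accession and 999 by the platform's symbol, while 48 named several genes and 9861 were not listed. Averaging by symbol gave 21556 features, 1312 of them over several probes. No filter on signal was applied. The fit used limma 3.58.1 in R 4.3.3 (lmFit and eBayes) on these 10 arrays, with Benjamini-Hochberg adjustment over all features and a threshold of 0.05. It was tested on simulated data whose noise was drawn independently for each feature and array. The simulation held no shifts shared by many genes, as seen in both wide arrays, so it cannot show their effect on the calls. Errors of differences are standard errors (SE). Animals were separate, and no number pairs them.

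The comparison and the 44 gene lists (1461 entries, 1085 measured, 926 different genes) were chosen with earlier results of these data known. Named by rule are the 15 largest called differences in each direction, up to 4 members of lowest p in each list described, and 4 sex-linked checks. Members under this rule that did not pass the threshold are in part left unnamed above. Among them are Nr0b2 (-0.80, adjusted p = 0.0577), Fkbp5 (1.26, adjusted p = 0.0718) and Serpina6 (-1.06, adjusted p = 0.0775). Named outside this rule, after their values had been seen, are Sult1c2, Ifng, Psme1, Gclc, Tmsb4x, Cd5l, Clec4f, Tbx21, Cd3e, Cd3d, Cd8a, Ccl5, Marco, Adgre1, Tyrobp, Timd4, Cd68, Cxcr3, Klrb1c, Tgtp1, Osbpl1a, Hspa9, Ptprcap, Fcer1g, Il18bp, Il10rb, Cxcl16 and Klkb1. The alternatives left out animals, rescaled or weighted arrays, changed the variance estimate, tested probes singly, tested named genes alone, and set limited values to missing.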

Additional observations from a re-analysis of the deposited data

Results flagged for a closer look

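In 14 of 260 groups of 5 livers examined (130 genes, 2 groups each), 1 liver stood apart from the other 4, with a gap to the nearest above 0.71 of the group's whole range. Chance flags about 1 group in 20, so a share of this order comes by chance. Of the 14, 6 fell on XX 6. It stood above the other XX livers for Gbp2b (1.41, the others at most 0.22), Saa1 (0.93, at most -0.63), Saa3 (0.93, at most -0.58), the interferon-induced Tgtp1 (1.87, at most 0.15), Cd2 (0.83, at most 0.62) and the endothelial marker Cd34 (0.66, at most 0.22). XX 2 stood above them for Hsd17b2, a hydroxysteroid dehydrogenase (0.56, at most 0.24), and Cd68 (0.33, at most 0.04). XX 29 was high for Sult3a1 (1.66, at most 0.52) and Rhbg (0.63, at most 0.33). Among XX Sry livers, animal 32 was the highest for the antiviral gene Oas3 (-0.03, the others at most -0.12) and Tbx21 (-0.31, at most -0.58), animal 9 for Serping1 (-0.13, at most -0.27), and animal 31 the lowest for Tmsb4x (-1.68, the others at least -1.41).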

How the results depend on the processing

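Of 385 called features, none changed direction in the fits that left out animals, rescaled or weighted arrays, changed the variance estimate, tested named genes alone or set limited values to missing. This is no support for the calls, since the 372 without overlap cannot turn when animals are left out or weighted. A changed variance estimate, or testing named genes alone, leaves the differences as they are. The 10 fits that left out 1 animal called 148 to 533 features, 17 to 124 of them higher and 131 to 409 lower. Weighting arrays by their quality called 661, of which 170 were higher and 491 lower. Quantile normalization called 103 as higher, and leaving out XX 2 and XX 6 together called 123. Of 90 called genes named above, 50 passed in all 10 fits that left out an animal and 81 passed without XX 2 and XX 6. Under quantile normalization 3 named genes lost their call (Nudt7, Ngp and Klkb1), and under median centring 4 did (Apbb3, Dact1, Osbpl1a and Hspa9). The list medians that moved by more than their spread between animals were those of bile acid genes (0.079, and -0.02 without XX 2 and XX 6), B cell markers (-0.14, and -0.07), pericentral genes (-0.40, and -0.23) and pancreatic markers (-0.038, and 0.05). The cause of these changes was not tested. No paired analysis was possible because every animal number is used once and the groups share none. Signal over background is unknown for these ratios, so weakly expressed genes could not be set apart.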

Other observations

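Unnamed probes made up 27 of the 60 higher and 91 of the 325 lower calls, so part of the comparison has no gene names here. The list means of T and NK cell and of Kupffer cell markers were lower in all 5 XX Sry than in all 5 XX livers, though most single genes of each list were not called. The mean of the type I interferon list was 1.15 in XX 6 and at most 0.050 in the other 9 livers. The list mean of cholangiocyte markers also kept the groups apart, from -0.15 to -0.070 in XX Sry and from 0.063 to 0.36 in XX, although 1 of its 14 genes was called. So did those of stellate cell markers (XX Sry at most -0.027, XX at least -0.017), matrix genes (-0.014 and 0.018) and erythroid genes (-0.055 and 0.026). Gluconeogenesis genes were separate in the other direction (XX Sry at least -0.19, XX at most -0.20). A separate list mean is thus not particular to the immune lists.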
